A study of Mus musculus with 335 samples.

Results

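Lung metastases of Met1 allografts were compared with the mammary tumours of the same mice. The comparison took every Met1 lung nodule that arose from an orthotopic graft, together with the final tumour of the same animal, and left out tumours taken in an earlier resection and metastases seeded through the tail vein. It held 17 of the 335 libraries of the series, 11 from lung nodules and 6 from tumours, in 6 mice. Mouse 9 gave 1 nodule, and mice 1, 3, 10, 13 and LW_1 gave 2 each. Mice 1, 3, 10 and 13 also have a library of a tumour resected earlier, and mice 9 and LW_1 do not. Met1 is a line from a mammary tumour driven by PyMT, the middle T antigen of polyoma virus, on the FVB strain. The grafts went into the mammary gland of FVB mice, and neither the mice nor the line is labelled with a treatment or a further allele. Tumours and nodules thus share a single line and driver, and the labels give no age of the mice. The tumour of mouse LW_1 is titled as a lung metastasis but has a primary mammary tumour as its source, which was followed. The 3 libraries of mouse LW_1 carry FVB as their strain label but FVBN in the column names of the table, where the other Met1 grafts have FVB. Healthy lung of FVB mice (4 libraries) and cultured Met1 cells (3 libraries) gave reference levels.

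A lung nodule cut from the organ holds tumour cells together with the lung that borders or is enclosed by them, and with the host cells that enter it. Alveoli are lined by type 1 cells, thin cells for gas exchange, and type 2 cells, which make surfactant, the lipid and protein film that keeps air spaces open. Club cells line the small airways. A mammary tumour carries a stroma of fibroblasts that lay down collagen and other matrix proteins, and PyMT tumours are known to draw in macrophages and neutrophils. In bulk RNA fewer cells of a type and less RNA per cell cannot be told apart, and this holds for every level below.

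Values are RPKM, the reads of a gene scaled to transcript length and to the reads of the library. Counted reads ran from 11397319 to 53442377 per library, so that 1 read in a transcript of 1 kilobase is worth from 0.0187 to 0.0877 RPKM. No 2 of the 17 libraries were identical (0 of 136 pairs). The tumour of mouse 1 stood apart. Its rank correlation with the other 16 libraries was between 0.674 and 0.784, with a median of 0.747, while the other 5 tumours correlated with each other at 0.875 to 0.966. Its summed RPKM of B and plasma cell markers was 1383, against 1.90 to 6.85 in the other tumours, and its sum of T and NK cell markers was 447, against 15.5 to 33.9. Adipocyte markers summed to 1591 there and to at most 194 in the others, and mammary luminal markers to 261, against 1178 to 1891. Results are therefore given with mouse 1 and, where its omission matters, without it.

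Lung RNA differed between nodules. The share of healthy lung was estimated for each nodule as the median level of 15 alveolar genes, above the tumour mean and relative to healthy lung. It was highest in mouse 9, at 43.6%. The nodules of mouse 3 had 14.6% and 31.1%, those of mouse 13 had 15.8% and 15.0%, and those of mouse 10 had 10.4% and 10.8%. The lowest shares were in mouse LW_1, at 4.37% and 3.15%, and in nodule 1 of mouse 1, at 2.5%, whose sister nodule had 10.2%. All 6 tumours were at or close to 0. Of 11 alveolar type 2 markers, the summed level was 19.6 to 202 RPKM in tumours, 474 to 8699 in nodules and 11866 to 18755 in healthy lung.

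Few genes passed the test across mice, and most that rose were higher in healthy lung than in the tumours. Nodules were averaged within a mouse, and the difference was fitted with limma on log2(RPKM + 1) with the mouse as a block. At a Benjamini-Hochberg adjusted p under 0.05, 35 genes were called, which is 0.317% of those tested, and 11001 were not. Of these, 29 (0.263%) were higher in metastases and 6 (0.0544%) were lower, and 1209 genes had an unadjusted p under 0.05. Over all genes tested, 4664 differences were positive and 6372 negative. Every called gene moved the same way in 6 of 6 mice. In 27 of the 29 and 5 of the 6 the range of the mouse means of the metastases did not overlap that of the tumours. Both counts follow in part from the choice of genes by p, and neither was made over all genes tested. In 17 of the 29 all 6 tumours were under 1 RPKM, so these genes entered the test through the metastases alone. For 27 of the 29, healthy lung exceeded the Met1 tumours by 2-fold or more, a count that was not made over all genes tested. It takes in Gprc5a, which cultured Met1 cells also express, and Gpnmb, whose healthy lung mean was below every nodule. The source of the rise was not tested.

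The calls depended on which mice entered. Without mouse 1, 38 genes (0.344% of 11035) were called higher and 7 (0.0634%) lower, and these held 24 of the 29 and 5 of the 6. Without mouse 3, 10 or 13 the counts fell to 9, 8 and 12 higher, with 0 lower each time, and without mouse 9 they were 20 higher and 10 lower. The 7 genes called in every fit that left out 1 mouse were Sftpc, Sftpa1, Sftpb, Sftpd, Ager, Cldn18 and Gprc5a. When the estimated lung share was subtracted from each nodule, 13 genes (0.121% of 10726) were called higher and 165 (1.54%) lower. Of the 29 genes, 9 were called again and 19 no longer reached the level needed for testing. All 6 of the lower genes were called again. Subtraction lowers a nodule further where healthy lung exceeds it, as it did on average for Postn, Fxyd2 and Col12a1. That these stayed lower was thus in part built in. This subtraction takes the same share from every gene, and for 125 of the 165 lower genes healthy lung exceeded the tumours by 2-fold or more.

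**Figure D1:**
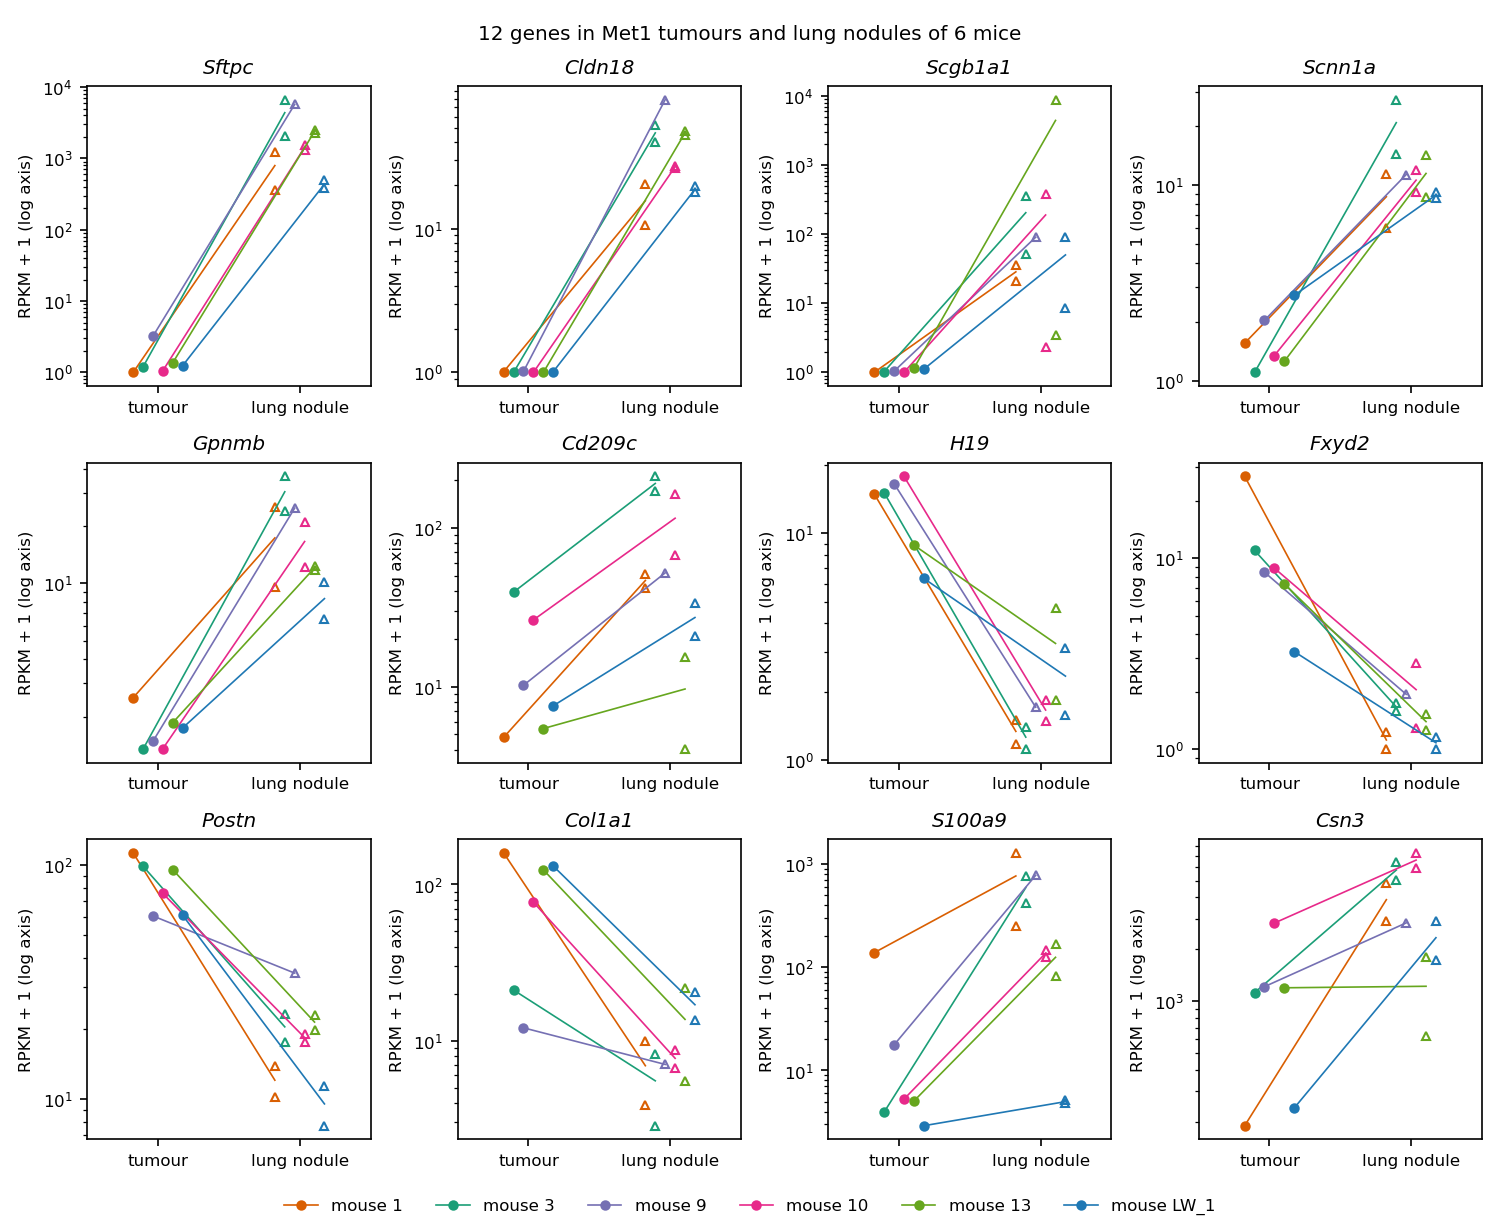
RPKM + 1 on a log axis for 12 genes, with a filled circle for each of 6 tumours and an open triangle for each of 11 nodules, coloured by mouse; lines join a tumour to the mean of its nodules. Sftpc, Cldn18, Scnn1a and Gpnmb are higher in every nodule than in any tumour, H19, Fxyd2 and Postn are lower in every nodule than in any tumour, and S100a9 in mouse LW_1 stays near the tumour level.

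Surfactant and alveolar type 2 genes differed most. Sftpc, the surfactant protein made by type 2 cells, had a lowest, median and highest RPKM of 0, 0.224 and 2.23 in tumours and of 361, 1538 and 6656 in nodules. The highest were nodule 2 of mouse 3 and the nodule of mouse 9, the lowest were nodule 1 of mouse 1 and both nodules of mouse LW_1, and the tissues did not overlap. The difference was 10.31 ± 0.40 (SE, n = 6 mice; limma adjusted p = 0.000129) on the log2(RPKM + 1) scale used for all differences here. Other surfactant proteins followed, with differences of 6.80 for Sftpa1, 6.76 for Sftpb and 5.74 for Sftpd. Lamp3, a lysosomal protein of the surfactant-storing bodies, went from a median of 0.0277 to 12.7 RPKM (difference 3.88), and Slc34a2, the phosphate transporter of type 2 cells, from 1.66 to 33.1 (3.84). Sfta2 was at 0 in every tumour and between 1.53 and 52.2 RPKM in nodules. Of 11 type 2 genes tested, 8 were called higher and none lower, at a median of 4.08, against 0.263% called higher and a median of -0.04 over all genes. All tumours were under 1 RPKM for Sftpa1, Sftpb, Lamp3 and Sfta2, which entered the test through the metastases alone. Cxcl15, a lung chemokine also called lungkine, rose by 4.98 ± 0.51 (adjusted p = 0.0134). Lamp3, Slc34a2, Sfta2 and Cxcl15 missed the threshold without mouse 3, 10 or 13, at an adjusted p of up to 0.197, and Sfta2 also without mouse 9 (adjusted p = 0.0718).

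Type 1 and airway genes moved in the same direction. Cldn18, a tight junction claudin of lung and stomach, was at most 0.0162 RPKM in tumours and between 9.68 and 78 in nodules, with a difference of 5.04 ± 0.31 (adjusted p = 0.00163). Ager, the receptor for advanced glycation end products and a type 1 marker, rose by 5.28, and Rtkn2 by 1.86. Of 9 type 1 genes tested, 3 were called higher with 6 mice and 6 without mouse 1, against 0.263% and 0.344% of all genes. Clic5 was among those called only without mouse 1 (adjusted p = 0.0625 with mouse 1 and 0.0429 without). The type 1 marker Aqp5, a water channel that Met1 cells also express, went the other way, as given below. Sec14l3 and Cyp2b10, both airway genes, rose by 4.01 and 3.66 from medians of 0 in the tumours. Rtkn2, Sec14l3 and Cyp2b10 missed the threshold without mouse 3, 10 or 13, at an adjusted p of up to 0.203, and Rtkn2 also without mouse 9 (adjusted p = 0.0586) or LW_1 (adjusted p = 0.0702).

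Airway content was uneven between nodules of the same mouse. Scgb1a1, the main secreted protein of club cells, reached at most 0.145 RPKM in tumours and 49065 on average in healthy lung. In mouse 13 nodule 1 had 8885 RPKM and nodule 2 had 2.49. In mouse 10 the values were 377 and 1.31, in mouse LW_1 90.9 and 7.58, and in mouse 3 357 and 51.6. Sftpc was close between the sister nodules of mouse 13, at 2248 and 2504 RPKM. Summed alveolar type 2 markers were 1811 and 2066 RPKM in mouse 10 and 673 and 512 in mouse LW_1. In mouse 3 they were 2730 in nodule 1 and 8699 in nodule 2, the reverse order of Scgb1a1. The mean difference of Scgb1a1 was 7.32 ± 0.84 (adjusted p = 0.0223), and it missed the threshold without mouse 3, 9 or 10, at up to 0.166. Cyp2f2, a cytochrome of club cells, had 73.6 and 0.32 RPKM in nodules 1 and 2 of mouse 13, and was not called (1.15 ± 0.74, adjusted p = 0.617).

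The 3 subunits of the epithelial sodium channel, which clears fluid from airways and alveoli, all rose. Scnn1a, the alpha subunit, had a lowest, median and highest RPKM of 0.102, 0.45 and 1.73 in tumours and 5.05, 10.3 and 26.3 in nodules. Its difference was 2.85 ± 0.30 (adjusted p = 0.0147), and nodule 2 of mouse 3 was highest. The beta and gamma subunits Scnn1b and Scnn1g, which were added after their values were seen, rose by 1.93 (adjusted p = 0.0385) and 2.31 (adjusted p = 0.0116). In healthy lung the means of the alpha, beta and gamma subunits were 84.1, 34.0 and 38.4 RPKM. Without mouse 10 or 13 none of the 3 was called, without mouse 3 the beta and gamma subunits were not, and without mouse 9 or LW_1 the beta subunit was not (adjusted p of up to 0.21). Sgk1, a kinase that raises the activity of this channel, was 20.0 to 75.4 RPKM in tumours and 47.9 to 135 in nodules, and higher in 6 of 6 mice, but missed the threshold (0.79 ± 0.15, adjusted p = 0.122).

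Gprc5a and Msln are called genes that cultured Met1 cells also express. Gprc5a, an orphan receptor abundant in alveolar epithelium, had a lowest, median and highest of 0.0826, 0.507 and 0.902 RPKM in tumours and 5.16, 11.2 and 27.5 in nodules. The tissues did not overlap, though the filter had set this for the mouse means, as all tumours were under 1 RPKM. The difference was 3.18 ± 0.22 (adjusted p = 0.0017), and cultured cells had 7.08 to 10.3 RPKM. Msln, the mesothelial surface protein mesothelin, was at most 0.398 RPKM in tumours, 1.11 to 4.96 in nodules, 59.4 to 116 in cultured cells and 58.0 on average in healthy lung. It rose by 1.82 ± 0.17 (adjusted p = 0.00927; 0.0542 without mouse 3), and it was the only one of 6 mesothelial markers to reach the level needed for testing. The summed mesothelial markers were 0.0462 to 0.903 RPKM in tumours and 1.52 to 8.16 in nodules. The part of lung surface cells in this result was not tested.

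Muc1 and Id1 had a clear level in the tumours too. Muc1, a mucin of glandular epithelium, was 0.705 RPKM in the tumour of mouse 1, 3.44 to 4.44 in the others and 7.52 to 43.8 in nodules. It rose by 2.36 ± 0.30 (adjusted p = 0.0338), and missed the threshold without mouse 1 (2.22, adjusted p = 0.0553) and without mouse 3, 9, 10 or 13 (adjusted p of up to 0.197). Id1, an inhibitor of differentiation induced by BMP signals, was 6.24 to 15.8 RPKM in tumours and 15.0 to 73.9 in nodules, highest in both nodules of mouse 1. Its difference was 1.77 ± 0.18 (adjusted p = 0.0134), and 0.15 with the lung share subtracted (adjusted p = 0.927). It missed the threshold without mouse 3 (adjusted p = 0.067) or 10 (adjusted p = 0.0997). Id1 fell outside the rule for named genes and was added after its values were seen.

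After the lung share was subtracted, 9 of the 29 genes were still called higher. Lung genes were among them, with Sftpc at 7.83 (adjusted p = 0.00583), Sftpd at 4.5 (adjusted p = 0.0239) and Slc34a2 at 1.72 (adjusted p = 0.0298). Sftpc, Sftpd and Slc34a2 are themselves among the 15 alveolar genes that set the share. A median share is too small for some of those genes, so calls among them were in part built in. Gpnmb, Atp6v0d2, Scgb3a1 and Cd209c were also among the 9. Gpnmb, a glycoprotein of lysosome-rich and lipid-laden macrophages, had a lowest, median and highest of 0.35, 0.615 and 1.51 RPKM in tumours and 5.49, 11.4 and 35.5 in nodules. Every nodule was above every tumour, while healthy lung had a mean of 3.42 RPKM, below each nodule. The difference was 3.32 ± 0.31 (adjusted p = 0.00927) and 3.56 with lung subtracted (adjusted p = 0.00564), but without mouse 10 it missed the threshold (adjusted p = 0.0863). Atp6v0d2, a proton pump subunit of osteoclasts and macrophages, was 0.173 to 0.974 RPKM in tumours and 2.09 to 17.9 in nodules. It rose by 2.67 ± 0.34 (adjusted p = 0.0338), and by 2.70 with lung subtracted (adjusted p = 0.0204). Scgb3a1, a secretoglobin, rose by 2.27 ± 0.30 from at most 0.311 RPKM in tumours to between 1.14 and 12.8 in nodules (adjusted p = 0.0338). Its highest nodule was nodule 2 of mouse 10, and the healthy lung mean was 2.95 RPKM. Atp6v0d2 and Scgb3a1 missed the threshold without mouse 3, 9, 10 or 13, and Scgb3a1 also without mouse LW_1, at an adjusted p of up to 0.197.

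Cd209c, a C-type lectin of the family of DC-SIGN, varied over a wide range in both tissues. The tumours of mice 1, 3, 9, 10, 13 and LW_1 had 3.79, 38.4, 9.19, 25.3, 4.44 and 6.57 RPKM. Nodules reached 169 and 210 RPKM in mouse 3 and 66.7 and 161 in mouse 10, but 3.04 and 14.3 in mouse 13. The mouse mean was higher than the tumour in 6 of 6 mice, the tissues overlapped, and the mice with the highest tumours had the highest nodules. The paired difference was 2.12 ± 0.28 (adjusted p = 0.0358) and 1.89 without mouse 1 (adjusted p = 0.0238). With the pairing ignored it was not called (adjusted p = 0.449), nor without mouse 3, 9, 10 or LW_1, at an adjusted p of up to 0.207. Healthy lung had a mean of 3.20 RPKM and cultured cells 3.32 to 11.1. Of 4 tested dendritic and CD209 genes, Cd209c alone was called.

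Among genes for which healthy lung exceeded the tumours by less than 2-fold in RPKM + 1, 6 had small p-values without passing the threshold. They were higher in 6 of 6 mice. S100a11, a calcium-binding protein abundant in epithelium, was 348 to 637 RPKM in tumours and 524 to 968 in nodules (0.62 ± 0.12, adjusted p = 0.11). Pla2g7, the phospholipase that clears platelet-activating factor, was 7.59 to 22.2 and 15.5 to 44.1 RPKM (1.06 ± 0.21, adjusted p = 0.125). Mmp12, the macrophage elastase, was 1.77 to 6.28 and 3.56 to 21.6 RPKM (0.96 ± 0.20, adjusted p = 0.148). The lysosomal protease gene Ctsl had a difference of 0.73 (adjusted p = 0.203), the lipid transporter gene Mfsd2a 1.09 (adjusted p = 0.125) and the small nucleolar RNA Snord42a 0.76 (adjusted p = 0.0954). Without mouse 1, none of these 6 genes was called, and without mouse LW_1 Mfsd2a was (adjusted p = 0.0397).

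**Figure D2:**
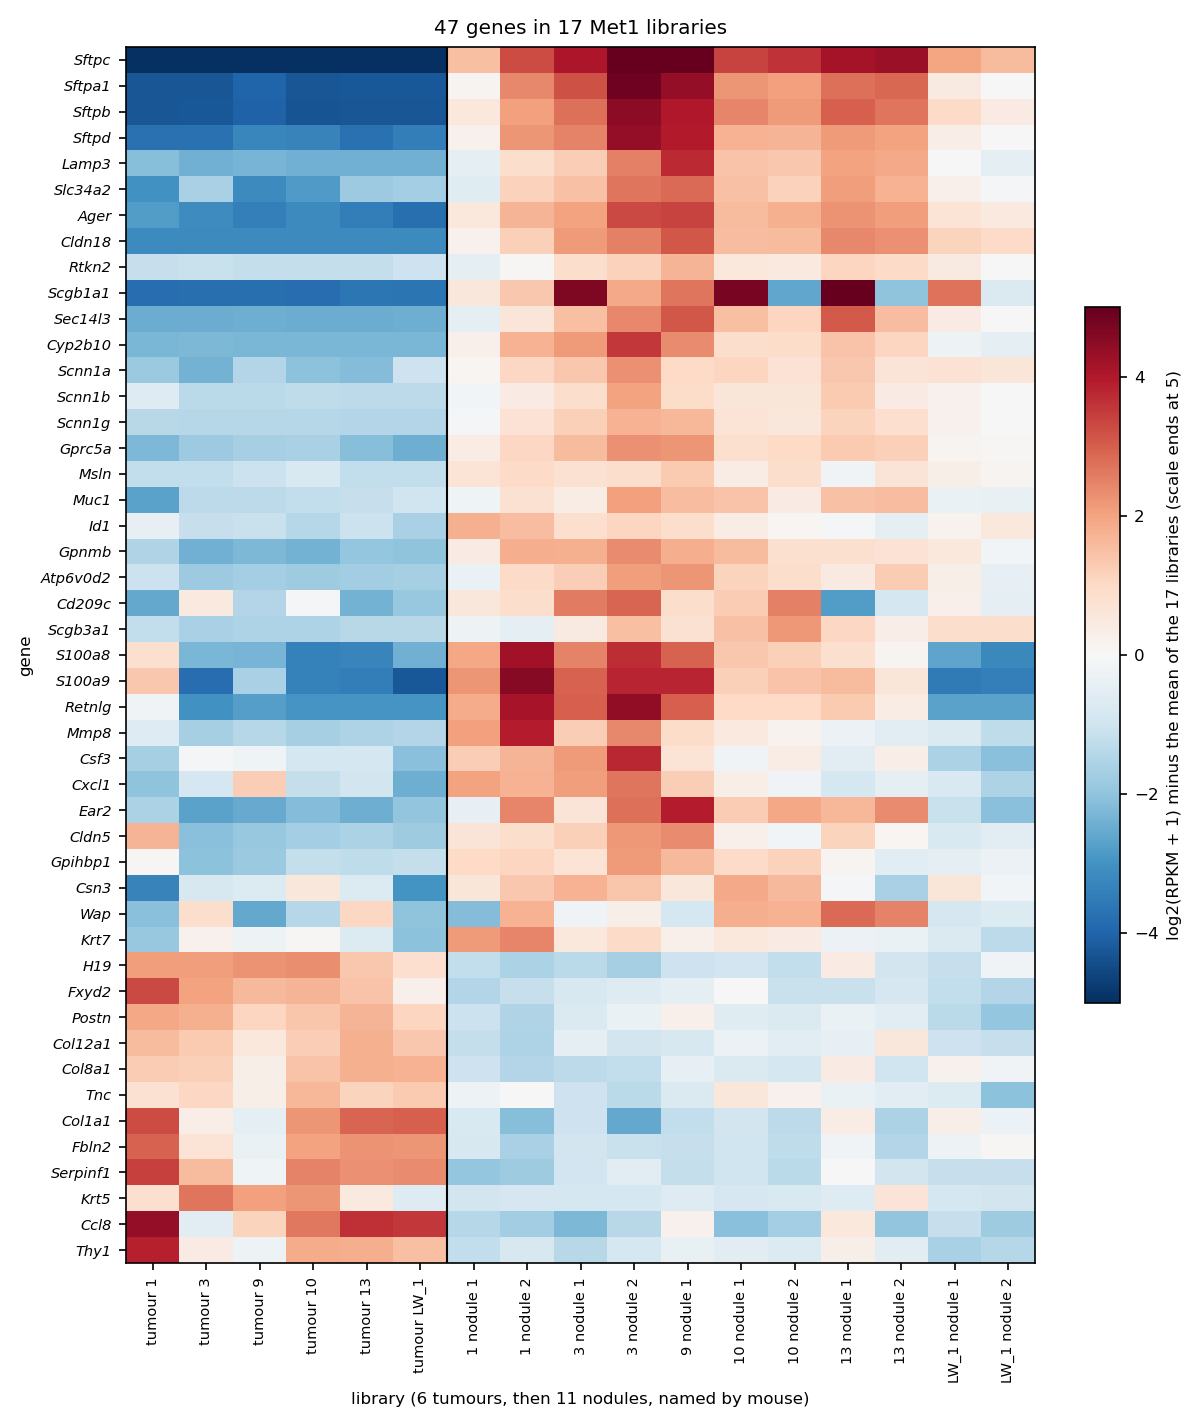
Heat map of 47 genes in 17 Met1 libraries, showing log2(RPKM + 1) minus the mean of the 17 libraries (red above, blue below, colours end at 5); the 6 tumours are left of the line and the 11 nodules right of it, named by mouse. Alveolar genes are highest in nodule 2 of mouse 3 and in the nodule of mouse 9, Scgb1a1 differs between sister nodules, and the neutrophil genes S100a8, S100a9 and Retnlg are low in both nodules of mouse LW_1.

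Of the 6 genes called lower, 5 are described here, and the other has an accession-like name of the kind left out by the rule for named genes. H19, an imprinted long non-coding RNA of fetal and growing tissue, had 13.9, 14.1, 15.6, 16.8, 7.87 and 5.33 RPKM in the tumours of mice 1, 3, 9, 10, 13 and LW_1. In nodules its lowest, median and highest were 0.116, 0.583 and 3.69 RPKM. No nodule reached the lowest tumour, and the highest nodule was nodule 1 of mouse 13. It fell by 2.77 ± 0.36 (adjusted p = 0.0338), with a difference of -2.63 and an adjusted p of 0.0558 without mouse 1. Healthy lung (0.924 RPKM) and cultured cells (0.0503 to 0.138 RPKM) were low as well. Of 7 imprinted growth genes tested, H19 alone was called. Plagl1, an imprinted zinc finger gene, was lower in 6 of 6 mice at -0.32 ± 0.12 (adjusted p = 0.394).

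Fxyd2, the gamma subunit that tunes the sodium pump, fell by 2.59 ± 0.36 (adjusted p = 0.0432). Its values in the tumours of mice 1, 3, 9, 10, 13 and LW_1 were 25.9, 10.0, 7.45, 7.87, 6.34 and 2.24 RPKM. In nodules they were 0 to 1.81 RPKM, again without overlap, and all 3 cultured cell libraries were at 0. The difference was -2.19 without mouse 1, whose tumour was the highest (adjusted p = 0.00652). Of 7 FXYD regulators tested, Fxyd2 alone was called.

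The other 3 encode matrix proteins. Postn, which encodes periostin, a stromal matrix protein, was 59.5 to 111 RPKM in tumours and 6.69 to 33.5 in nodules. The highest nodule was that of mouse 9, which also had the largest lung share, and healthy lung had 58.8 RPKM. Postn fell by 2.20 ± 0.28 (adjusted p = 0.0338), and by 2.92 with lung subtracted. Col12a1, a collagen that coats larger fibrils, went from a median of 8.2 to 1.07 RPKM and fell by 2.00 ± 0.22 (adjusted p = 0.0177). Col8a1, a short-chain collagen of vessel walls, went from 8.36 to 0.994 RPKM and fell by 1.92 ± 0.25 (adjusted p = 0.0338). For both, the mouse means did not overlap the tumours, though nodule 2 of mouse 13 (Col12a1, 4.44 RPKM) and nodule 1 of mouse 13 (Col8a1, 3.88 RPKM) came above the lowest tumour. H19, Fxyd2, Postn, Col12a1 and Col8a1 each missed the threshold without mouse 3, 10 or 13, at an adjusted p of up to 0.21. H19 and Fxyd2 also missed it without mouse 9 (both at an adjusted p of 0.0954), and Fxyd2, Postn and Col8a1 without mouse LW_1 (adjusted p of up to 0.1). None of the 5 was called in an unpaired fit that added the tumour of mouse 11, a Met1 graft with no metastasis library here, at an adjusted p of 0.0752 to 0.197. That tumour is described with the other observations.

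Further matrix genes were lower without reaching the threshold. Of 20 fibroblast matrix genes tested, 2 were called lower, 19 were negative and the median was -1.56, or -1.20 without mouse 1. Col1a1, the main chain of type I collagen, had 158, 20.1, 11.1, 76.0, 123 and 130 RPKM in the tumours of mice 1, 3, 9, 10, 13 and LW_1, and 1.85 to 20.8 in nodules. The tumours of mice 3 and 9 were within the range of the nodules. Its difference was -2.78 ± 0.44 (adjusted p = 0.0731). Tnc, the glycoprotein tenascin C, was lower in 6 of 6 mice at -1.58 ± 0.23 (adjusted p = 0.0522), and was called without mouse 1 (adjusted p = 0.0372). Serpinf1, which encodes the secreted factor PEDF, had a difference of -3.06 (adjusted p = 0.0795) and the matrix gene Fbln2 one of -2.51 (adjusted p = 0.075). Without mouse 9 Col1a1 (adjusted p = 0.0262), Serpinf1 and Fbln2 (both 0.0392) were called lower. Cultured Met1 cells themselves had 6.59 to 26.4 RPKM of Col1a1 and 17.7 to 58.8 of Tnc. With lung subtracted, 9 of the 20 were called lower, against 1.54% of all genes. The summed level of these genes was 870 to 1348 RPKM in healthy lung and 173 to 600 in nodules. The larger number of calls was thus in part built in.

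Some genes of other stromal and host cells had negative differences without being called. Ccl8, a chemokine that draws monocytes, was 284 RPKM in the tumour of mouse 1, 8.04 to 169 in the others and 1.89 to 18.3 in nodules, with a difference of -3.56 ± 0.69 (adjusted p = 0.131). Thy1, a surface protein of fibroblasts and T cells, had a difference of -2.31 ± 0.54 (adjusted p = 0.231), and was 81.0 RPKM in the tumour of mouse 1. Clec10a, a lectin of macrophages and dendritic cells, had a median of 12.9 RPKM in tumours and 1.04 in nodules (-1.99 ± 0.67, adjusted p = 0.363). Most CC chemokine genes went the other way. Of 11 tested, 7 were positive at a median of 0.07, or 0.42 over 10 tested without mouse 1, and none was called. Of 4 dendritic and CD209 genes tested, 3 were positive. None of the 9 T and NK cell genes tested was called, and their median was -0.49, or 0.21 over the 6 tested without mouse 1. The single adipocyte gene tested was lower (-2.42, not called), and no skeletal muscle gene reached the level needed for testing.

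S100a8, S100a9 and Retnlg were high in the nodules of 5 mice and not in those of LW_1. S100a9, a calcium-binding protein stored in neutrophils, had 137 RPKM in the tumour of mouse 1 and 2.95, 16.7, 4.27, 4.05 and 1.92 in those of mice 3, 9, 10, 13 and LW_1. Nodules had 251 and 1279 RPKM in mouse 1, 418 and 760 in mouse 3, 776 in mouse 9, 125 and 147 in mouse 10, 166 and 81.9 in mouse 13, and 3.81 and 4.18 in mouse LW_1. The mean was higher in 6 of 6 mice, the nodules of mouse LW_1 were within the tumour range, and the difference was 4.21 ± 0.76 (adjusted p = 0.109). Without mouse LW_1 it was called, at an adjusted p of 0.0453. Retnlg, a resistin-like protein of granulocytes, had 0.066 to 6.65 RPKM in tumours, 10.3 to 186 in the nodules of the other 5 mice and 0.368 and 0.369 in mouse LW_1. It too was called without mouse LW_1 (adjusted p = 0.0281), as was S100a8, the partner of S100a9 (adjusted p = 0.0186).

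As a group, 13 of 13 neutrophil genes tested were positive, at a median of 2.17, and none was called. Without mouse 1 only 8 were tested, all positive at a median of 1.79. Over all genes tested, 4664 were positive and 6372 negative, or 4860 and 6175 without mouse 1. Members low in most tumours, such as Mmp8 (tumour mean 0.266 RPKM), passed the filter largely through the metastases. Their positive sign was thus in part built in. The summed level without Lcn2, an epithelial gene in these libraries too, was 380 RPKM in the tumour of mouse 1, 16.9 to 52.2 in the other tumours, 195 to 3437 in nodules and 77.2 to 377 in healthy lung. The nodules of mouse LW_1 had 1733 and 1534 RPKM, of which Ltf, the iron-binding protein lactoferrin of neutrophil granules and milk, made up 1710 and 1516. Ltf was at most 45.2 RPKM in all other nodules and 30.0 in the tumour of mouse LW_1. With Ltf left out as well, a sum added after its values were seen, the nodules of mouse LW_1 had 22.7 and 17.1 RPKM, its tumour 22.2 and the other nodules 188 to 3392. Mmp8, the neutrophil collagenase, had a difference of 2.24 (adjusted p = 0.159) and the cystatin-like gene Stfa2l1 one of 2.72 (adjusted p = 0.203). Among factors that recruit neutrophils, Cxcl15 was called, as above. Csf3, which encodes G-CSF, was at most 3.38 RPKM in tumours, 61 in nodule 2 of mouse 3, 13.0 to 39.7 in cultured cells and 0.068 in healthy lung (1.56 ± 0.44, adjusted p = 0.314). Cxcl1, a chemokine for neutrophils, had 53.9 to 103 RPKM in the nodules of mice 1 and 3 and 4.53 to 36.8 in the others (adjusted p = 0.35). The nodules of mouse LW_1 were the lowest of all nodules for Csf3, at 0.545 and 0.0715 RPKM.

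Macrophage genes gave no common direction. Of 15 tested, none was called, 5 were positive and the median was -0.16. Without mouse 1, 8 of 15 were positive at a median of 0.02, again with none called. The summed markers were 5045 RPKM in the tumour of mouse 1 and 545 to 1584 in the other tumours. Trem2, a lipid receptor of tissue macrophages, had a difference of 0.48 ± 0.20 (adjusted p = 0.44), and Ms4a7 one of -0.51 ± 0.17 (adjusted p = 0.357). Lyz2, the lysozyme of myeloid cells and type 2 cells, was 2387 RPKM in the tumour of mouse 1, 134 to 620 in the other tumours and 318 to 3476 in nodules. Ear2, a ribonuclease of alveolar macrophages and eosinophils, was at most 1.13 RPKM in tumours and reached 95.8 in the nodule of mouse 9 (3.85 ± 0.67, adjusted p = 0.0954). It was 2.00 and 0.509 RPKM in the nodules of mouse LW_1, without which it was called (adjusted p = 0.0186). The part of macrophages in the levels of Gpnmb, Atp6v0d2 and Mmp12 was not tested.

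Endothelial genes were positive throughout and none was called. Of 14 tested, 14 had a positive difference, at a median of 0.83, and 13 of 13 were positive without mouse 1, at a median of 1.21. With lung subtracted the median was -2.27 and 7 of 10 tested were called lower, against 1.54% of all genes. These markers summed to 1444 to 1706 RPKM in healthy lung and 46.4 to 321 in nodules, so the fall was in part built in. Cldn5, the claudin of endothelial junctions, was 18.5 RPKM in the tumour of mouse 1, 0.419 to 1.05 in the other tumours and 2.62 to 30.3 in nodules (2.07 ± 0.63, adjusted p = 0.335). Healthy lung had a mean of 198 RPKM. Gpihbp1, which anchors lipoprotein lipase to capillaries, was 2.31 to 13.2 RPKM in tumours and 8.57 to 58.7 in nodules (2.06 ± 0.43, adjusted p = 0.169), and its difference was 0.09 with lung subtracted. Flt1, a VEGF receptor, differed by 0.65 ± 0.20 (adjusted p = 0.334) and by -0.39 with lung subtracted, so that the sign turned.

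**Figure D3:**
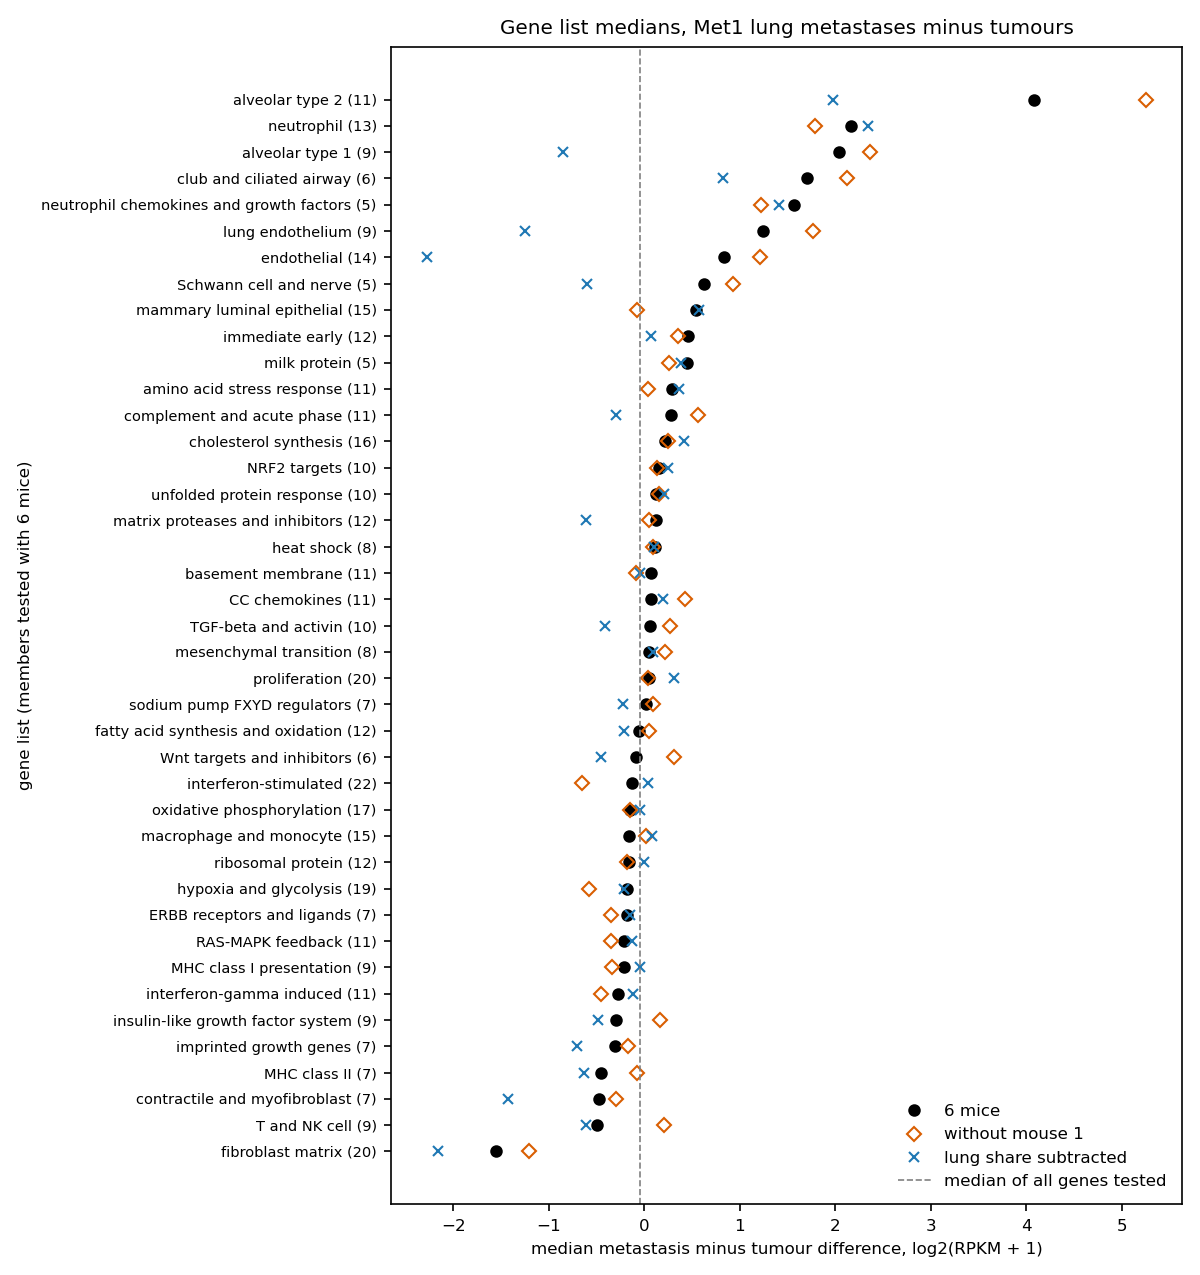
Median metastasis minus tumour difference on the log2(RPKM + 1) scale for gene lists with at least 5 members tested (number in brackets): all 6 mice (circles), without mouse 1 (diamonds) and with the lung share subtracted (crosses), with the median of all genes as a dashed line. Alveolar lists and the neutrophil list lie highest and fibroblast matrix lowest, and the endothelial lists move below 0 with lung subtracted.

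Mammary luminal markers were as high in nodules as in most tumours. The summed level of 17 luminal markers was 1226 to 2966 RPKM in nodules, against 1178 to 1891 in tumours other than that of mouse 1. Of 15 tested, 1 was called, Muc1, and the median was 0.54 with mouse 1 and -0.08 without it. Krt7, a keratin of simple epithelium, was 20.7 to 104 RPKM in tumours and 35.7 to 481 in nodules, highest in both nodules of mouse 1 (1.19 ± 0.51, adjusted p = 0.451). The basal keratin gene Krt5 was 2.37, 11.0, 6.89, 7.70, 1.63 and 0.22 RPKM in the tumours of mice 1, 3, 9, 10, 13 and LW_1, and at most 0.21 in nodules except nodule 2 of mouse 13, at 1.92. It was lower in 6 of 6 mice without being called (-1.94 ± 0.48, adjusted p = 0.253), and it was at most 0.0226 RPKM in cultured cells.

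Milk protein genes, which luminal cells switch on in differentiation, varied between mice and nodules. Csn3, the kappa casein gene, was 188 to 2840 RPKM in tumours and 626 to 7248 in nodules, and higher in 6 of 6 mice, but not called (2.08 ± 0.54, adjusted p = 0.277). Wap, the whey acidic protein gene, was 2.92 to 45.9 RPKM in tumours and 4.13 to 162 in nodules (adjusted p = 0.328). Of 5 milk protein genes tested, 4 were positive and none was called. Cultured Met1 cells had at most 73.5 RPKM of Csn3 and 0.156 of Wap, below every tumour and nodule. Aqp5 was 83.0 to 1288 RPKM in tumours and 43.3 to 711 in nodules, lower in 6 of 6 mice (-0.99 ± 0.16, adjusted p = 0.0809).

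No gene of the growth, metabolic and interferon lists below was called. Of 20 proliferation genes tested none was called, 11 were positive and the median was 0.05, with summed levels of 396 to 592 RPKM in tumours and 410 to 690 in nodules. All 16 cholesterol synthesis genes tested were positive, at a median of 0.22, and none was called. Among them Cyp51, a sterol demethylase, was 8.34 to 14.8 RPKM in tumours and 12.7 to 26.6 in nodules (0.49 ± 0.13, adjusted p = 0.301). Of 19 hypoxia and glycolysis genes 13 were negative (median -0.18), and of 17 oxidative phosphorylation genes also 13 (median -0.15), with none called in either list. Without mouse 1, 16 of the 19 hypoxia and glycolysis genes were negative at a median of -0.58, and 8 had an unadjusted p under 0.05, against 0 with it. Of 22 interferon-stimulated genes 16 were negative at a median of -0.13, and without mouse 1 all 22 were negative at a median of -0.66, again with none called. Of 7 MHC class II genes tested, 7 were negative with mouse 1 and 4 without it, and none was called.

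Sister nodules resembled each other more than they resembled nodules of other mice. Genes more than 2-fold apart (in RPKM + 1) between sister nodules were 3.01% of those tested in mouse 1, 3.09% in mouse 3, 1.21% in mouse 10, 3.23% in mouse 13 and 0.462% in mouse LW_1. Between nodules of different mice the share was 4.09% to 23.3%, at a median of 12.4% over 50 pairs, so the 5 sister pairs lay below all of these. A tumour and a nodule of the same mouse were 4.22% to 24.4% apart, the highest values being those of mouse 1, and 4.22% to 13.6% without that mouse. Depth differs between libraries and adds to each share, and these pairs share libraries, so no test was made.

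**Figure D4:**
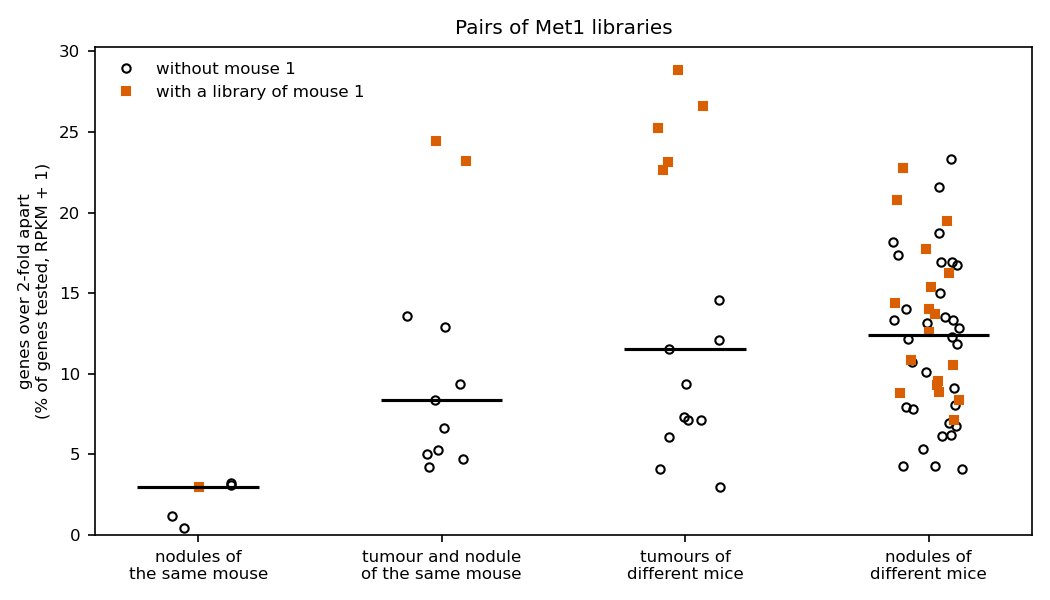
Share of tested genes more than 2-fold apart in RPKM + 1 (vertical axis, %) for pairs of Met1 libraries of 4 kinds; each point is a pair, squares are pairs with a library of mouse 1 and lines are medians. Sister nodules lie at 0.462% to 3.23%, and pairs of nodules of different mice have a median of 12.4%.

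Some genes marked a mouse or a nodule. Igfbp5, a binding protein of insulin-like growth factors, was 1335 to 2167 RPKM in the nodules of mice 10 and 13 and 34.4 to 109 in all others, while tumours ranged from 203 to 1766. Its mean difference was thus without direction (-1.56 ± 0.85, adjusted p = 0.546). Igtp, an interferon-induced GTPase, was 82.7 and 11.2 RPKM in nodules 1 and 2 of mouse 13, and Igj, the joining chain of secreted antibodies, 158 and 2.37. In mouse 1 nodule 2 had 75.2 RPKM of Wap and nodule 1 had 4.13. Egfr, the receptor for epidermal growth factor, was 0.179 and 0.323 RPKM in the nodules of mouse LW_1 and 1.79 to 3.99 in all others.

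The metastasis minus tumour difference was then compared with that of 3 other mammary tumour models, each with its own paired mice. Mvt1 (6 mice, drivers Myc and VEGF) and 6DT1 (6 mice, driver Myc) are lines grafted orthotopically into FVB mice, and PyMT FVB (12 mice) are FVB mice whose tumours arise from the PyMT transgene. All 3 comparisons use the same Met1 mice. Against Mvt1, 69 of 11977 genes (0.576%) had a higher difference in Met1 and 33 (0.276%) a lower one. Against 6DT1 there were 75 of 12049 (0.622%) higher and 174 (1.44%) lower. Against PyMT FVB 0 of 12191 genes (0%) were called by limma, with 686 at an unadjusted p under 0.05 and a lowest adjusted p of 0.644. Without mouse 10 the Mvt1 counts were 0 and 0, and without mouse 3 they were 3 and 5. Without mouse 9 they were 280 and 150, without mouse 13 they were 28 and 18, and without mouse LW_1 they were 11 and 8. Without mouse 1 they were 121 and 50, and the 6DT1 counts were 158 and 339. Without mouse LW_1 the 6DT1 comparison had 45 higher.

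Fxyd2, Cd209c and Aqp5 were among the Met1 genes that differed from the grafted lines Mvt1 or 6DT1, and none of them was called against PyMT FVB. Fxyd2 went from a mean of 9.97 to 0.54 RPKM in Met1, from 0.441 to 0.602 in Mvt1, from 0.646 to 0.408 in 6DT1 and from 1.38 to 0.419 in PyMT FVB. Its difference was lower in Met1 than in Mvt1 by -2.68 ± 0.51 (adjusted p = 0.0349) and than in 6DT1 by -2.42 ± 0.45 (adjusted p = 0.018), with tumours of those 2 lines already low. The Fxyd2 gap to PyMT FVB was -2.02 (limma adjusted p = 0.644). Cd209c went from 14.6 to 72.5 RPKM in Met1 and from 1.96 to 1.58 in 6DT1, a gap of 2.33 ± 0.38 (adjusted p = 0.00944). The gap was 2.13 against Mvt1 (adjusted p = 0.0713) and 2.08 against PyMT FVB (adjusted p = 0.806). Aqp5 was lower in metastases in Met1 (-0.99) and higher in Mvt1 (1.59) and 6DT1 (1.76), with gaps of -2.58 (adjusted p = 0.0235) and -2.75 (adjusted p = 4.17e-05). In PyMT FVB it was also lower in metastases (-0.40), from a tumour mean of 227 RPKM, with a gap of -0.59 (limma adjusted p = 0.92). Met1 tumours had a mean of 580 RPKM of Aqp5, against 4.14 in Mvt1, 5.86 in 6DT1 and 95.7 in healthy lung.

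Several of the largest gaps lay in genes that Met1 tumours already express. Tspan8, a tetraspanin of epithelium, was 85.5 RPKM in Met1 tumours and 79.7 in metastases, but went from 0.196 to 11.1 in Mvt1 and from 0.135 to 15.2 in 6DT1. The gaps were -3.40 ± 0.49 (adjusted p = 0.0235) and -4.01 ± 0.35 (adjusted p = 6.75e-05), and healthy lung had 92.0 RPKM. Plekhb1 was alike, at 58.7 and 37.0 RPKM in Met1 and at 0.0829 and 4.90 in Mvt1. Muc1 and Slc34a2 rose in Met1 from 3.29 and 1.70 RPKM, and in 6DT1 from 0.104 and 0.00474 RPKM. Their differences were lower in Met1 by -2.12 (adjusted p = 0.0126) and -2.58 (adjusted p = 0.0323). For Gprc5a the gap to 6DT1 was positive (1.31 ± 0.26, adjusted p = 0.0213), the 6DT1 tumours being at 8.84 RPKM.

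In other genes the difference in the other line was the larger, or the signs were opposite. Sulf2, an enzyme that trims heparan sulfate, was 27.4 and 39.1 RPKM in Met1, 15.9 and 4.53 in Mvt1 and 22.6 and 4.99 in 6DT1. It was higher in Met1 by 2.07 (adjusted p = 0.029) and 2.38 (adjusted p = 0.00614). Wnt7b, a Wnt ligand, was 8.00 and 20.3 RPKM in Met1 and 36.3 and 13.8 in Mvt1, with differences of 1.41 and -1.25 (2.67 ± 0.53, adjusted p = 0.0398). All of the named gaps to Mvt1 missed the threshold without mouse 10. In 6DT1 the cytokine gene Il24 went from 5.59 to 94.2 RPKM, against 0.0457 and 0.197 in Met1 (-3.67, adjusted p = 2.7e-05), and the protease inhibitor gene Serpinb2 from 1.80 to 28.5 (-3.60, adjusted p = 2.23e-05). The Speer, Prl2c and Gzm genes also passed, but are families of near-identical copies whose reads cannot be assigned with certainty. Sftpc, Gpnmb, Postn and Col1a1 were not called in any of the 3 comparisons. The gap for Gpnmb against Mvt1 was 0.56 ± 0.66, and that for Col1a1 was -0.30 ± 0.75.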

How the data were processed

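RNA of snap-frozen tissue was sequenced on a HiSeq2500, per the labels' protocols. The submitters' processing notes name TopHat, the mm9 build and DESeq2, without saying how the last was used. The authors deposited RPKM for 20188 genes together, of which 94 sample columns were used and 241 were not. Counts were not analysed here. Depth was recovered from the steps of 1 read that low RPKM values take in 6784 genes (100% of values within 0.001 reads of whole numbers).

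Nodules were averaged per mouse as RPKM, genes at 1 RPKM or more in at least 6 of 12 profiles were kept, and log2(RPKM + 1) was fitted with limma 3.58.1 (R 4.3.3, data.table version 1.17.8; trend and robust moderation, Benjamini-Hochberg). The mouse was the block because tumour and nodules come from the same animal. Deviations from the group means correlated within mice at 0.12 (mouse 1), 0.08 (3), -0.13 (9), 0.15 (10), 0.37 (13) and 0.71 (LW_1). The lung share of a nodule was the median, over 15 alveolar genes at 20 RPKM or more in healthy lung and at least 10 times the tumour mean, of nodule minus tumour mean over lung minus tumour mean, and share times lung was subtracted with the rest rescaled and values below 0 set to 0. Models were compared through the differences of their mice. P-values measure the spread among these mice. The depth recovery and the fit were tested on simulated data. The lung share was tried on mixtures made from the same mean tumour and mean lung profiles, which it recovers by construction. That trial thus says nothing of its error in real nodules. Python 3.11.15, numpy 2.4.6, pandas 2.3.3 and matplotlib 3.10.9 were used.

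The comparison and the 50 gene lists were chosen with earlier results of these data known, so lists are described by counts and medians. Named genes were called, at least 2-fold changed and at 5 RPKM or more (up to 20 higher, 15 lower), the 10 of smallest p not high in lung and the 10 lower, up to 4 per list, and up to 8 per direction in each comparison of models. Predicted genes and receptor segments were left out. Genes given for single mice or nodules, Scnn1b, Scnn1g and Id1 were chosen after their values were seen. Some genes that met the rule are not reported here. No sequence or coordinate was used.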

Additional observations from a re-analysis of the deposited data

Results flagged for a closer look

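Single samples stood far from the rest of their group of 6, by Dixon's test, in 25 of 164 groups of values. The test's rate of about 1 in 20 holds for independent groups. These groups share libraries, and some genes were chosen after their values were seen, so the count cannot be set against that rate. Values are log2(RPKM + 1) unless stated. The tumour of mouse 1 accounts for 13: its median rank correlation with the other libraries (0.747), low Muc1 (0.77), Cldn3 (4.41) and Lcn2 (9.68), and high S100a8 (7.03), Retnlg (2.94), Mmp8 (1.06), Stfa2l1 (2.87), Cldn5 (4.29), Calcrl (2.69), Atp6v0d2 (0.98), Scnn1b (0.73) and Lamp3 (0.31). The tumour of mouse 9 was high for Sftpc (1.69), Sftpa1 (0.26) and Sftpb (0.26) and low for Col8a1 (2.16). Other tumours stood out for S100g in mouse LW_1 (0.38), Cyp2b10 in mouse 3 (0.00897) and Msln in mouse 10 (0.48), all at low levels. Among metastases, mouse LW_1 was low for S100a9 (2.32), Flt1 (1.44) and Egfr (0.32), mouse 3 was high for Scnn1a (4.38) and mouse 13 for Krt5 (1.04).

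The metastasis minus tumour difference itself differed between Met1 and the other lines (limma, Benjamini-Hochberg adjusted p under 0.05), the same Met1 mice entering each comparison. Against Mvt1 it was higher in Met1 for Speer4e (3.82), Speer4d (2.82), Wnt7b (2.67), Trp53i11 (2.23), Sulf2 (2.07), Speer7-ps1 (1.80), Fstl3 (1.53) and Snord42a (1.53). It was lower for Tspan8 (-3.40), Plekhb1 (-3.05), Fxyd2 (-2.68), Aqp5 (-2.58), Ckmt1 (-2.38), Sort1 (-2.32), Ceacam1 (-1.83) and Ppfibp2 (-1.07). Against 6DT1 it was higher for Gzmg (3.04), Speer4e (2.96), Crabp2 (2.80), Gzmf (2.77), Crabp1 (2.74), Gzmd (2.54), Pdgfc (2.47), Sulf2 (2.38), Cd209c (2.33), Gprc5a (1.31) and Pla2g7 (0.972). It was lower for Prl2c3 (-5.20), Prl2c2 (-4.83), Tspan8 (-4.01), Il24 (-3.67), Krt7 (-3.64), Serpinb2 (-3.60), Ifi205 (-3.12), Plekhb1 (-3.08), Aqp5 (-2.75), Slc34a2 (-2.58), Fxyd2 (-2.42) and Muc1 (-2.12).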

How the results depend on the processing

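Of 32 called genes among the 81 named and tested, 31 kept their direction in every alternative that tested them, the exception being Id1. Counts are given as higher and lower in metastases, against 29 and 6. Without the pairing (no replicate block) they were 47 and 12. They were 183 and 191 with the 17 libraries as units, 12 and 3 in the 4 mice with a resected tumour, 16 and 3 with a filter at 5 RPKM, 8 and 0 with no filter, and 13 and 165 with lung subtracted. With the lowest-numbered nodule alone 19 were higher. Leaving out 1 mouse gave 8 to 38 higher and 0 to 10 lower. Alternatives chosen after seeing the data gave 12 and 135 (lung subtracted, without mouse 1), 60 and 10 (no replicate block, without mouse 1), 53 and 4 (unpaired, tumour of mouse 11 added) and 81 and 4 (the same without mouse 1), where H19, Fxyd2, Postn, Col12a1 and Col8a1 all missed the threshold. Against Mvt1, leaving out 1 mouse gave 0 to 280 higher and 0 to 150 lower, and a pseudocount of 0.1 gave 51 lower. Against 6DT1 the ranges were 45 to 158 and 122 to 339, with 271 lower at that pseudocount. Against PyMT FVB they were 0 to 1 and 0 to 1, with 1 higher without the filter. Signs turned with lung subtracted for Ramp2 (-2.47), Flt1 (-0.39), Ctgf (-0.85) and Timp3 (-2.56). With mouse 1 also left out they turned for Ramp2 (-1.96), Flt1 (-0.40), Gpihbp1 (-0.026), Ctgf (-0.93), Dusp1 (-0.0367), Timp3 (-2.46) and Id1 (-0.22). The causes were not tested. Genes under 1 RPKM rest on few reads in the shallowest library.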

Other observations

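The final tumour of mouse 11, a Met1 graft without a lung metastasis library here, entered only the unpaired alternatives above. It had 0.481 RPKM of H19, 0.0398 of Fxyd2, 15.2 of Postn, 1.01 of Col12a1, 0.894 of Col8a1, 2.92 of Col1a1 and 3.32 of Tnc. Each of these 7 values was below all 6 paired tumours. Its Sftpc was 0.166 RPKM, and its Cd209c 14.5 RPKM, within the range of the paired tumours.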
